A study of Mus musculus with 6 samples.

Results

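Nms+ neurons of the mouse suprachiasmatic nucleus (SCN) were taken as the nuclei that the authors' annotation places in their cluster of that name, 669 of the 22796 annotated nuclei. Nms encodes neuromedin S, a peptide that in the brain is made largely in the SCN. It acts through neuromedin U receptors, and neurons that make it have been tied to the pacing of circadian rhythms in behaviour. In the adult mouse SCN the Nms-expressing population overlaps with the Avp and Vip neurons, which make arginine vasopressin and vasoactive intestinal peptide. The SCN is the hypothalamic clock that is set by light, and Avp+, Vip+ and Cck+ (cholecystokinin) neurons of the same libraries served as the comparison.

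The study profiled isolated nuclei of wild-type C57BL6/J mice at 4 stages, gestational day 17.5 (GD17.5) and postnatal days 2, 10 and 30 (PND2, PND10, PND30), in 6 libraries. Mothers were kept in 12 hours of light and 12 hours of dark, and no group carried an allele or a treatment. Tissue of every stage was collected in the same window, some hours after lights on. The paper holds it possible that some clusters are too small because of expression at that hour. SCN was dissected from 250 µm coronal sections of 1 male and 1 female per mother, and the tissue of 10 animals was pooled per stage. PND10 and PND30 have 2 libraries each because library preparation and sequencing were repeated, and whether the second library came from other animals is not stated in the sources used here. The difference between 2 libraries of a stage may therefore be technical, biological or both, and p-values over libraries measure only the spread between these libraries.

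Each transcript carried a unique molecular identifier (UMI), so that PCR copies count once. The placed nuclei held between 10921890 and 31389145 UMIs per library, with medians between 3144 and 12106 UMIs per nucleus, and the 2 PND30 libraries lay at the ends of that range of medians. All 669 Nms+ nuclei could be placed in 1 library by barcode. Of their barcodes, 4 also belonged to an annotated nucleus of another library, and the PND30 libraries shared no annotated barcode. The 32285 rows of the count matrices carried no gene names in the files used here, so that the Nms+ label was not checked against Nms itself, and features are described without names. The authors removed doublets by a doublet score before the annotation was made.

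The first question was when Nms+ neurons appeared in the annotation. No Nms+ nucleus was annotated among 4921 nuclei at GD17.5 (95% Clopper-Pearson upper bound 0.0749%) or among 5555 nuclei at PND2 (upper bound 0.0664%). At PND10, replicate 1 had none among 1361 nuclei (upper bound 0.271%), and replicate 2 had 5 among 4714 nuclei, or 0.106% (95% Clopper-Pearson interval 0.0344% to 0.247%). At PND30, replicate 1 had 7 among 771 nuclei, or 0.908% (0.366% to 1.86%), and replicate 2 had 657 among 5468 nuclei, or 12.0% (11.2% to 12.9%). Nms+ nuclei were thus annotated at PND10 and PND30, and nearly all of them came from 1 library. These intervals and limits cover counting error only.

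Over libraries, the share of all nuclei was 6.46% ± 7.85 (SD, n = 2) at PND30 and 0.0530% ± 0.0750 (SD, n = 2) at PND10. The exact two-sided permutation test of this difference gave p = 0.33, the smallest value that 2 against 2 libraries allow. Taken over the Avp+, Vip+, Cck+ and Nms+ neurons alone, which removes glia, extra-SCN neurons and the early SCN neurons without a peptide name, the Nms+ share was 1.27% (0.513% to 2.60%) of 550 in PND30 replicate 1 and 14.5% (13.5% to 15.5%) of 4539 in replicate 2. The stage means were 7.87% ± 9.34 (SD, n = 2) at PND30 and 0.103% ± 0.145 (SD, n = 2) at PND10, with the same exact permutation p = 0.33. Both PND30 libraries lay above both PND10 libraries. Without PND30 replicate 2, the PND30 share of all nuclei exceeded the PND10 mean by 0.855 percentage points in place of 6.41.

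**Figure D1:**
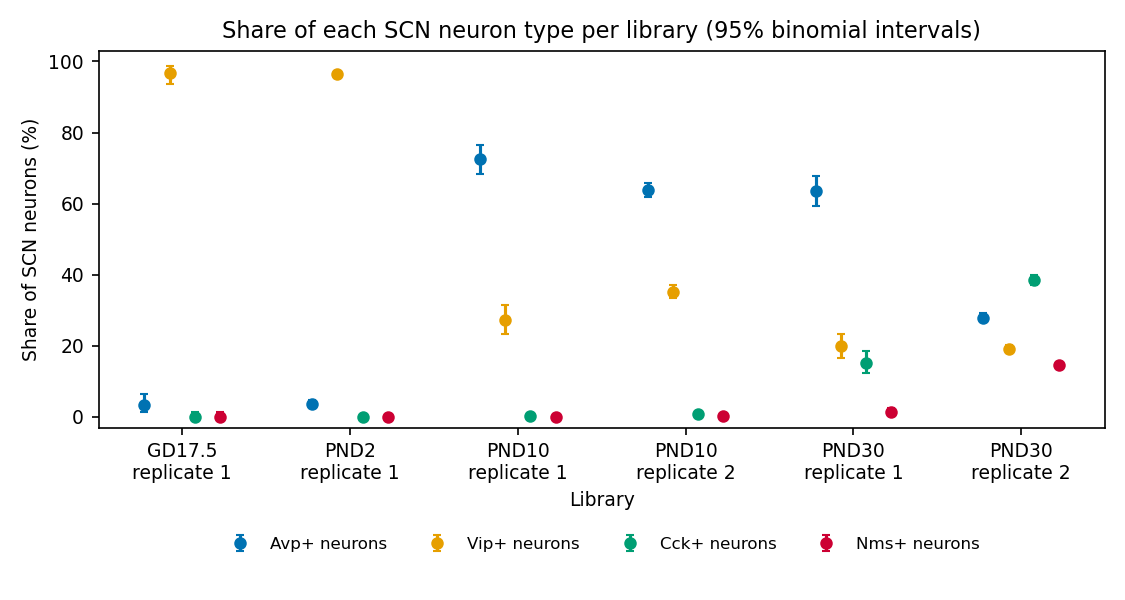
Share of Avp+, Vip+, Cck+ and Nms+ neurons among these 4 types (vertical axis, %) in each of the 6 libraries (horizontal axis), with 95% Clopper-Pearson intervals as bars. Nms+ neurons reached 14.5% in PND30 replicate 2 and 1.27% in PND30 replicate 1, and were at or near 0 in the other libraries.

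The gap between the PND30 libraries was not shared evenly by the SCN types. PND30 replicate 1 had 50 Avp+, 15.6 Vip+ and 12 Cck+ nuclei for each Nms+ nucleus, and replicate 2 had 1.93, 1.33 and 2.65. Avp+ neurons differed the other way, with 63.6% (59.5% to 67.7%) of SCN neurons in replicate 1 and 27.9% (26.6% to 29.3%) in replicate 2. Vip+ neurons held 19.8% (16.6% to 23.4%) and 19.2% (18.1% to 20.4%), intervals that overlapped. Cck+ neurons were more frequent where Nms+ neurons were, with 15.3% (12.4% to 18.6%) and 38.4% (37.0% to 39.8%). Cck+ neurons were also rare before PND30, with 1 nucleus in PND10 replicate 1 and 20 in replicate 2.

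Depth differed between the PND30 libraries and was set beside the share. In PND30 replicate 2, Nms+ nuclei had a median of 3088 UMIs, against 3296 in Avp+, 3397 in Vip+ and 3119 in Cck+ nuclei, which are ratios of 0.937, 0.909 and 0.990. Their range was narrower at the top, with a highest value of 10054 UMIs against 28082 in Avp+, 16718 in Vip+ and 15549 in Cck+ nuclei. A highest value grows with the number of nuclei, which was 657 against 1268, 871 and 1743. The upper quartiles lay closer together, at 4288 UMIs against 4714, 4903 and 4424.5. When the SCN neurons of this library were ordered by UMIs and cut into quintiles, the Nms+ share was 15.3% (13.0% to 17.8%), 16.0% (13.7% to 18.5%), 14.6% (12.4% to 17.1%) and 16.0% (13.7% to 18.6%) in the lower quintiles, and 10.5% (8.55% to 12.6%) in the highest. The share thus changed little over most of the range of depth, and the deepest quintile, which starts at 4915 UMIs, stood below the others.

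The 7 Nms+ nuclei of PND30 replicate 1 had 1242, 4509, 5717, 6007, 6430, 9120 and 15096 UMIs. Their median of 6007 was 0.495 times that of Avp+, 0.461 times that of Vip+ and 0.458 times that of Cck+ nuclei, whose medians were 12128, 13026 and 13104. The 5 nuclei of PND10 replicate 2 had 806, 878, 978, 1897 and 2128 UMIs, where the median Avp+ nucleus had 4383. The median Nms+ nucleus outside PND30 replicate 2 was therefore shallow for its library, while the deepest of the 7 lay above the medians of the other types. The part of depth in the Nms+ annotation was not tested.

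**Figure D2:**
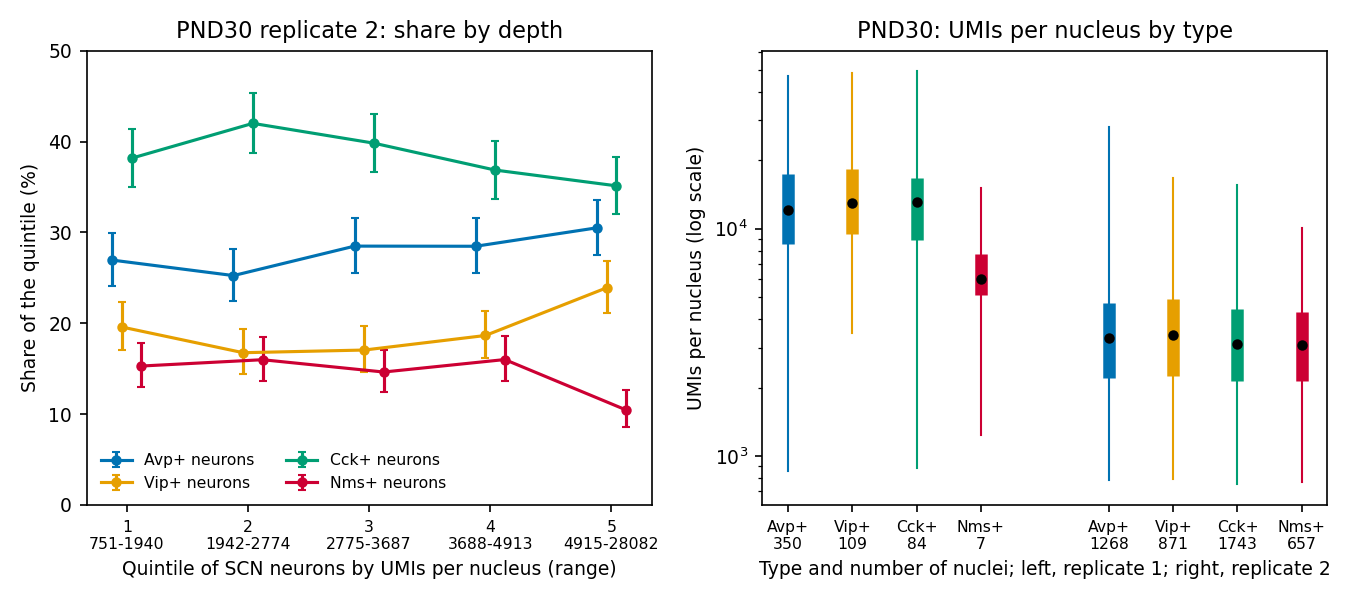
Left, share of each SCN type (vertical axis, %) in quintiles of UMIs per nucleus in PND30 replicate 2 (horizontal axis, with the range of each quintile), with 95% Clopper-Pearson intervals; Nms+ falls to 10.5% in the highest quintile. Right, UMIs per nucleus on a log scale by type in PND30 replicate 1 and replicate 2, with the range (thin line), the quartiles (thick line) and the median (dot).

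Nms+ nuclei held fewer features at the same depth. After nuclei with at least 1500 UMIs were thinned to 1500, the 584 Nms+ nuclei of PND30 replicate 2 had a median of 959 features (quartiles 933 and 984), against 997 in Avp+, 1004 in Vip+ and 1004 in Cck+ nuclei. The ratios were 0.962, 0.955 and 0.955. In PND30 replicate 1, 6 Nms+ nuclei passed this limit and had a median of 891.5 features, against 989, 1006 and 1006.5, with ratios of 0.901, 0.886 and 0.886. The direction was thus alike in both libraries, while the 2 Nms+ nuclei of PND10 replicate 2 that passed had a median of 1019 against 1007 in Avp+ nuclei. Summed over nuclei and thinned to 2207928 UMIs per type, the 100 features with the most UMIs took 31.1% of the Nms+ total and between 27.2% and 27.9% of the totals of the other types, and 19325 features were detected against 19755 to 20495.

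How far Nms+ nuclei stood apart was described by their neighbours, over 30 principal components of 2000 variable features and with 584 nuclei per type. The annotation was made from the same counts, so these values describe the cluster and test nothing. Of the 20 nearest neighbours of an Nms+ nucleus, 87.2% were Nms+ on average, against an own share of 84.0% in Vip+, 79.8% in Cck+ and 78.6% in Avp+ nuclei. Nms+ neighbours were the majority in 557 Nms+ nuclei, or 95.4% (93.3% to 96.9%), while own majorities were found in 83.6%, 86.6% and 87.0% of Avp+, Vip+ and Cck+ nuclei. Neighbours of the other types were mixed at a like rate, with 5.14% Avp+, 3.72% Vip+ and 3.98% Cck+. In turn, Nms+ was the most frequent foreign type among the neighbours of every other type. It made up 10.8% of the neighbours of Avp+, 11.1% of those of Vip+ and 9.13% of those of Cck+ nuclei. The 27 Nms+ nuclei without an Nms+ majority leaned to no single type, with Avp+ leading among the others in 10, Vip+ in 10 and Cck+ in 7, and had a median of 2867 UMIs against 3337 in the rest.

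The Nms+ cluster was also the most compact. Its nuclei lay at a squared distance of 67.6 from their mean on average, against 118.9 in Avp+, 123.3 in Vip+ and 100.4 in Cck+ nuclei, with ratios of 0.568, 0.548 and 0.673. The mean of the Nms+ nuclei lay nearest to those of Avp+ and Cck+ neurons, at squared distances of 44.7 and 46.5, and farther from that of Vip+ neurons, at 65.0. The distance between the means of Avp+ and Cck+ neurons was 44.0.

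**Figure D3:**
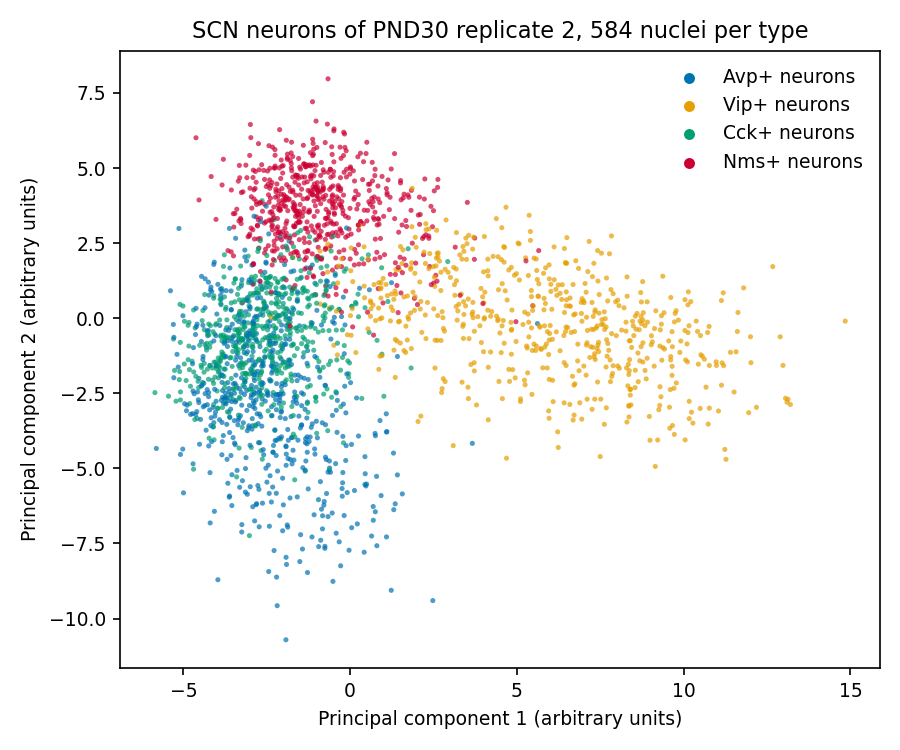
SCN neurons of PND30 replicate 2 on principal components 1 and 2 (both axes in arbitrary units), with 584 nuclei per type as points coloured by type. Nms+ nuclei form a compact group beside Avp+ and Cck+ nuclei, and Vip+ nuclei spread along component 1.

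Features that separated Nms+ neurons were then described in PND30 replicate 2, where each type is 1 sum and no test is possible. Among 9701 features with a mean of at least 10 CPM (UMIs scaled to a total of 1000000), 314 were at least 2-fold higher in Nms+ than in Avp+ neurons (3.24% of those compared) and 408 were at least 2-fold lower (4.21%), on the log2(CPM + 1) scale. Against Vip+ neurons 390 were higher (4.02%) and 539 lower (5.56%), and against Cck+ neurons 365 were higher (3.76%) and 592 lower (6.1%). The median log2 ratios over all features were -0.14, -0.09 and -0.12, so that the typical feature lay slightly lower in Nms+ neurons. With that median set to 0, the counts became 387 higher and 311 lower against Avp+, 455 and 455 against Vip+, and 448 and 451 against Cck+ neurons, so the surplus of lower features depended on the scaling and turned round against Avp+ neurons. Across these features, log2 CPM of Nms+ neurons correlated with that of Avp+, Vip+ and Cck+ neurons at r = 0.925, 0.908 and 0.913, a description over features that are not independent.

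As a yardstick, the same type was set against itself in the other PND30 library at 1147025 UMIs each. Avp+, Vip+ and Cck+ neurons differed between the libraries by at least 2-fold in 597, 427 and 581 of the 9701 features (6.15%, 4.40% and 5.99%). At that depth Nms+ neurons of replicate 2 differed from Avp+, Vip+ and Cck+ neurons of replicate 2 in 907, 1116 and 1147 features (9.35%, 11.5% and 11.8%). The differences between types within the library were thus more numerous than those of a type between libraries, by less than 3 times. That order was partly fixed, because the types had been clustered apart on these counts. The features were also filtered on levels of replicate 2 that include Nms+ neurons.

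Nms+ neurons had the highest CPM of the 4 types in 15.1% of the features and the lowest in 36.2%, while each other type was highest in 25.2% to 28.8% and lowest in 16.3% to 24.4%. Divided by the median ratio of each type to the mean, these Nms+ values became 26.0% and 24.7%, so the excess of lowest features did not remain under that scaling. At least 2-fold above all 3 other types were 62 features (0.639%), and at least 2-fold below all 3 were 63 (0.649%). By the same rule Avp+ neurons had 85 above and 75 below, Vip+ neurons 182 and 126, and Cck+ neurons 97 and 51.

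The feature with the largest excess in Nms+ neurons was seen in 10.8% (8.54% to 13.4%) of Nms+ nuclei of PND30 replicate 2, with 91 UMIs. It was seen in 0.552% of Avp+, 0.574% of Vip+ and 0.287% of Cck+ nuclei, and in none of 390 mature astrocytes (upper exact bound 0.941%). On the sums thinned to 2207928 UMIs, its level was 41.2 CPM in Nms+ and 1.36, 1.81 and 0.906 CPM in Avp+, Vip+ and Cck+ neurons, a log2 ratio of 3.91 to the highest of them. Its mean over the 4 types was 11.3 CPM, so it passed the filter only through the Nms+ level that ranks it first. The same held for 16 of the 62 features above, whose mean over the other 3 types was under 10 CPM, and for none of the 63 below. The second feature was seen in 19.8% (16.8% to 23.0%) of Nms+ nuclei, against 2.52%, 1.61% and 1.78% of Avp+, Vip+ and Cck+ nuclei and 1.54% of mature astrocytes. On the thinned sums it had 79.7 CPM in Nms+ and 10.9 CPM in Avp+ neurons, the highest of the others, a log2 ratio of 2.77. Both features were thus seen in a minority of Nms+ nuclei, above the share in astrocytes, a type taken as the background of free RNA.

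In PND30 replicate 1, where nuclei were deeper, the first feature had 4 UMIs over the 7 Nms+ nuclei, or 83.1 CPM (22.6 to 213), against 9.45 CPM (6.95 to 12.6) in Avp+, 1.79 in Vip+ and 1.74 in Cck+ neurons. The second had 6 UMIs, or 125 CPM, in Nms+ nuclei, 28.2 CPM (23.7 to 33.2) in Avp+ and 7.75 CPM in Vip+ neurons, and no UMI in Cck+ nuclei, with 19.9 CPM in astrocytes. Nms+ nuclei thus had the highest level in both PND30 libraries, and among the other SCN types Avp+ neurons of replicate 1 came next for both features. The second feature was seen there in 18.3% of Avp+ nuclei. In libraries without an annotated Nms+ nucleus it had 42.7 CPM in Avp+ and 26.4 CPM in Vip+ neurons of PND10 replicate 1. Vip+ neurons of PND2 had 28.7 CPM, while early SCN neurons of GD17.5 had 2.04 CPM. The second feature was therefore not particular to Nms+ neurons across the libraries.

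The feature with the largest deficit was seen in 197 of the 657 Nms+ nuclei (26.5% to 33.7%), against 73.0% of Avp+, 71.8% of Vip+, 65.1% of Cck+ nuclei and 10.5% of mature astrocytes. On the thinned sums its level was 149 CPM in Nms+ and between 576 and 653 CPM in the other SCN types, with a log2 ratio of -1.94 to the lowest of them. The second had 7.25 CPM in Nms+ and 28.5 CPM in Vip+ neurons, the lowest of the others on the thinned sums, a log2 ratio of -1.84. It was seen in 2.28% of Nms+ and 9.78%, 8.96% and 7.63% of Avp+, Vip+ and Cck+ nuclei, and in 4.62% of astrocytes. In PND30 replicate 1 the first of these features had 2 UMIs over the 7 Nms+ nuclei, or 41.6 CPM, against 463 to 522 CPM in the other SCN types, the order seen in replicate 2. The second had no UMI in these 7 nuclei, with an upper bound of 76.7 CPM. That bound lay above the 34.0 to 41.8 CPM of the other SCN types there, so the second feature cannot show the order.

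The 62 features above and the 63 below were next followed into libraries that had not been used to choose them. The Nms+ label there came from the annotation made over all libraries on these counts. The levels of its nuclei are therefore not independent of the label, and they describe them and test nothing. In PND30 replicate 2 the set above summed to 11481 CPM in Nms+ neurons, against 2823 in Avp+, 3110 in Vip+ and 2410 in Cck+ neurons, and the set below to 1584 against 8725, 4880 and 5926, values that the choice fixed. In PND30 replicate 1 the set above summed to 7190 CPM in the 7 Nms+ nuclei (exact Poisson interval 6452 to 7989), against 4817 in Avp+, 3349 in Vip+ and 2079 in Cck+ neurons. The set below summed there to 1746 CPM (1392 to 2161), against 5270, 4470 and 5876. In PND10 replicate 2 the 5 Nms+ nuclei had 6580 CPM (4781 to 8833) for the set above, against 3136 in Avp+, 4195 in Vip+ and 1846 in Cck+ neurons. For the set below they had 2393 CPM (1368 to 3886) from 16 UMIs, against 6711, 3938 and 6847, so the Vip+ value lay just past the interval. Summed over each set, Nms+ nuclei thus had the highest level of the set above and the lowest of the set below among the SCN types in both other libraries, on 48121 and 6687 UMIs. Feature by feature this was uneven. Of the 62 features above, 48 had a UMI in Nms+ nuclei of PND30 replicate 1, and 37, 46 and 46 were higher than in Avp+, Vip+ and Cck+ neurons, with 25, 16 and 16 lower. In PND10 replicate 2 only 23 of the 62 had a UMI in Nms+ nuclei, and 22 were higher and 40 lower than in Avp+ neurons.

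Levels of the set above were not low in every other cell class. Mature astrocytes had 7344 CPM in PND30 replicate 2 and 6773 in replicate 1, and 13 of the 62 features were higher in astrocytes than in Nms+ neurons of replicate 2. Early SCN neurons had 1591 CPM at GD17.5 and 1647 at PND2, and extra-SCN neurons had 1665 in PND30 replicate 2. Features marking other classes were chosen as at least 8-fold above the SCN types, which keeps out features with high levels in Nms+ neurons. Their sums were thus bounded by the choice and cannot speak to the astrocyte levels of the set above. Within that bound they were not higher in Nms+ neurons than in the other SCN types of PND30 replicate 2. The 333 features marking mature astrocytes summed to 4507 CPM in Nms+ neurons, against 4565 to 5071 in the other SCN types and 147170 in astrocytes themselves. The features marking mature oligodendrocytes summed to 3307 CPM against 3746 to 4155, those marking microglia to 4087 against 4381 to 4777, and those marking extra-SCN neurons to 126 against 155 to 241.

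Nuclei of the other libraries were then placed among the SCN neurons of PND30 replicate 2. The 6 Nms+ nuclei of PND30 replicate 1 with at least 1500 UMIs had 65% to 95% Nms+ nuclei among their nearest neighbours there, and 83.3% on average. The 2 such nuclei of PND10 replicate 2 had 65% and 90%. Every one of these 8 nuclei thus lay mostly among Nms+ nuclei of a library whose nuclei were prepared apart from theirs, although the annotation itself was made over all libraries.

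Many nuclei annotated as Avp+ also lay nearest to Nms+ nuclei, and many to Cck+ nuclei. Nms+ was the leading neighbour type of 127 of 348 Avp+ nuclei in PND30 replicate 1, or 36.5% (31.4% to 41.8%), against 59 of 578, or 10.2% (7.86% to 13.0%), among Avp+ nuclei of replicate 2 that were not part of the reference. The share was 42.1% (36.8% to 47.5%) in PND10 replicate 1 and 20.2% (18.2% to 22.4%) in PND10 replicate 2. Vip+ nuclei had 7.34% in PND30 replicate 1 and 2.96% in replicate 2, intervals that overlapped, and 19.4% and 23.4% in the PND10 libraries. Cck+ nuclei had 2.44% and 4.79% in the PND30 libraries. Avp+ nuclei also had Cck+ as the leading type, 56 of 348 in PND30 replicate 1 and 19 of the 578 held-out nuclei of replicate 2. At PND10 these were 93 of 342 in replicate 1 and 520 of 1487 in replicate 2, where Nms+ led for 301. Over all SCN neurons of PND30 replicate 1 with at least 1500 UMIs, 143 of 545, or 26.2%, had Nms+ as the leading type, where 6 were annotated Nms+. Avp+ nuclei with Nms+ leading and with Avp+ leading had similar median depths there, 12135 and 12071 UMIs. In the PND10 libraries those with Nms+ leading were shallower, with 7309.5 against 9142 UMIs in replicate 1 and 4193 against 4830 in replicate 2. The part of depth in the placement was not tested.

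**Figure D4:**
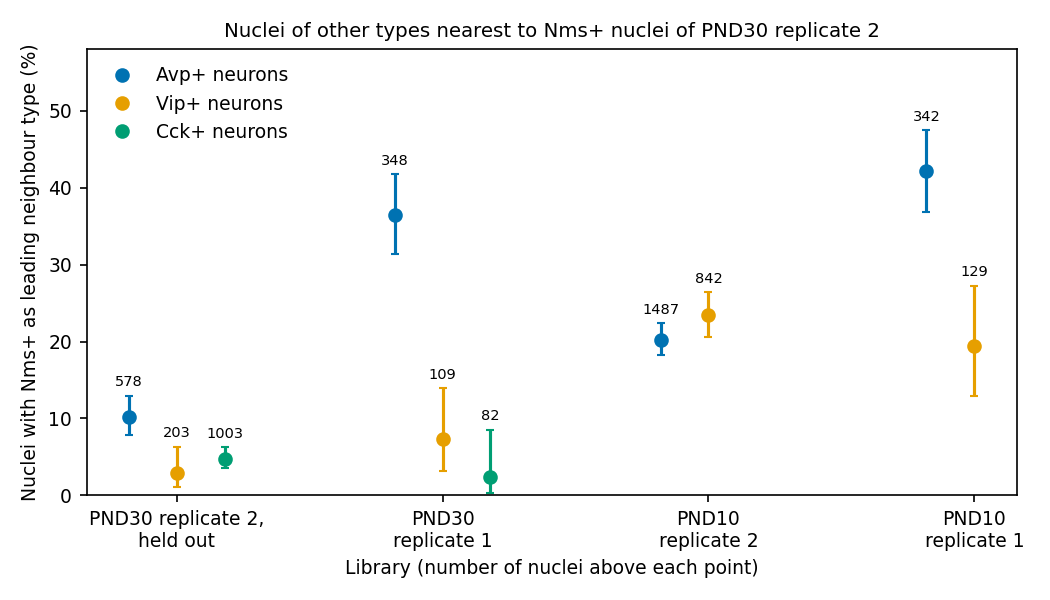
Share of Avp+, Vip+ and Cck+ nuclei whose leading neighbour type in PND30 replicate 2 was Nms+ (vertical axis, %), by library (horizontal axis), with 95% Clopper-Pearson intervals and the number of nuclei above each point; groups under 50 nuclei are not drawn. Avp+ nuclei reached 36.5% in PND30 replicate 1 and 10.2% among held-out nuclei of replicate 2.

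The placement was repeated with the 125 features of both sets left out of the components, and these features were then read in the nuclei so placed. Features correlated with them stayed in the components, so the values describe the placed nuclei and test nothing. In PND30 replicate 1, 162 Avp+ nuclei with Nms+ as the leading type had 6885 CPM (6559 to 7223) of the set above and 2807 CPM (2600 to 3025) of the set below. The 141 Avp+ nuclei with Avp+ leading had 2487 CPM (2279 to 2709) and 7593 CPM (7227 to 7974). The contrast had the same direction in PND10 replicate 1, with 6740 and 2743 CPM against 3059 and 8118, and in PND10 replicate 2, with 4546 and 3929 CPM against 2491 and 8757. Held-out Avp+ nuclei of PND30 replicate 2 had 4285 and 6639 CPM in 96 nuclei against 2591 and 9017 in 460. They were held out of the reference only, and their counts were part of the sums that chose both sets. Their levels were thus bounded by the choice, and the size of their contrast cannot be set against that of the other libraries. At 1500 UMIs the feature with the largest Nms+ excess was seen in none of these 162 nuclei of PND30 replicate 1, with an upper exact bound of 2.25%, and the second in 6.17% (3.00% to 11.1%), against 0.709% (0.0180% to 3.89%) of the 141 nuclei for either feature. The 38 Avp+ nuclei with Cck+ leading had the second feature in 7.89% (1.66% to 21.4%), so it did not set the nuclei with Nms+ leading apart from these, and had 4035 CPM of the set above and 6544 CPM of the set below. The contrast was not particular to Avp+ nuclei. In PND10 replicate 2, 277 Vip+ nuclei with Nms+ leading had 6758 and 2462 CPM, against 3047 and 4488 in 522 with Vip+ leading. In PND30 replicate 1 it was 5048 and 2476 CPM in 14 Vip+ nuclei against 3193 and 4596 in 95. The 7 Cck+ nuclei there with Nms+ leading had 1619 and 5048 CPM, against 2009 and 5849 with Cck+ leading, so their set above was not higher.

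The same was read without any neighbours, as the share of nuclei with more UMIs of the set above than of the set below at 1500 UMIs. It was 98.1% (96.7% to 99.1%) of the 584 Nms+ and 10.9% (9.19% to 12.9%) of the 1162 Avp+ nuclei in PND30 replicate 2, a separation that the choice of the features in this library fixed. Among Avp+ nuclei of libraries not used for that choice it was 48.6% (43.2% to 54.0%) of 348 in PND30 replicate 1, 55.8% (50.4% to 61.2%) of 342 in PND10 replicate 1 and 29.0% (26.7% to 31.4%) of 1487 in PND10 replicate 2. Of the 6 Nms+ nuclei in PND30 replicate 1, 5 had more of the set above and 1 was level. Vip+ nuclei had 33.0% (24.3% to 42.7%) in PND30 replicate 1 and 29.1% (25.9% to 32.4%) in replicate 2, and Cck+ nuclei 18.3% (10.6% to 28.4%) and 19.2% (17.2% to 21.2%). In the PND10 libraries Vip+ nuclei had 41.1% (32.5% to 50.1%) of 129 in replicate 1 and 46.2% (42.8% to 49.6%) of 842 in replicate 2. The share was thus below that of Avp+ nuclei in PND10 replicate 1 and above it in PND10 replicate 2. The intervals are over nuclei of 1 library each and test no difference between libraries, and the values of replicate 2 are those of the library that chose the features. Mature astrocytes reached 64.1% and 71.6% in the PND30 libraries, and 5.13% and 3.72% once the features past the Nms+ level in astrocytes were left out, while Avp+ nuclei then had 50.9% and 13.0%.

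This difference of UMIs is a range and not a class. Among Avp+ nuclei of PND30 replicate 1 it ran from -8 at the lower quartile to 7 at the upper, with 32 nuclei within 1 UMI of 0, while in Nms+ nuclei of replicate 2 the quartiles were 10 and 20 and in Avp+ nuclei of that library -13 and -4. Avp+ nuclei of PND30 replicate 1 thus reached from the Avp+ range of replicate 2 into its Nms+ range. Only a minority did the latter, as their upper quartile of 7 lay below the Nms+ lower quartile of 10. Library, depth and animals cannot be told apart in this contrast, which rests on 1 library on each side.

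**Figure D5:**
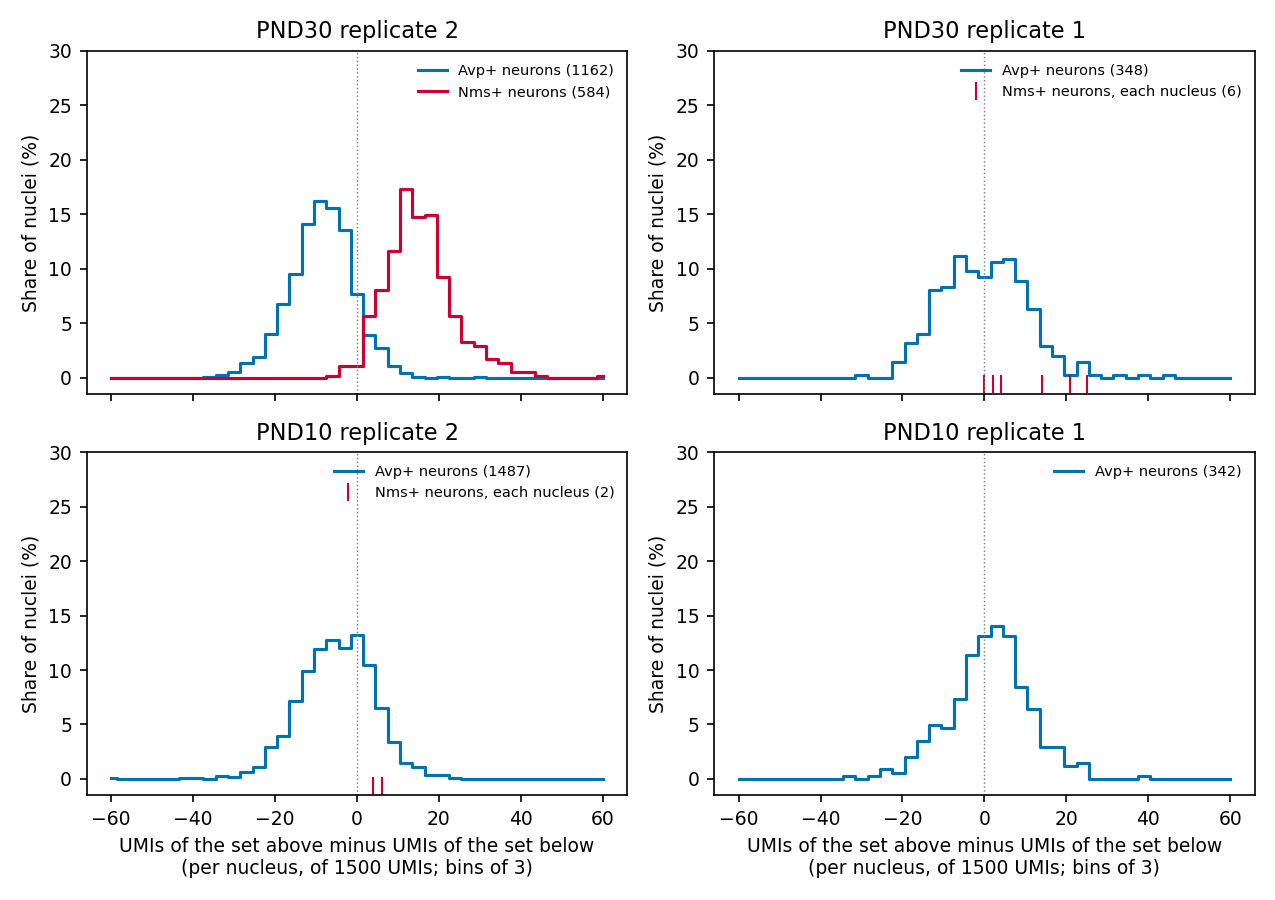
UMIs of the 62 features above minus UMIs of the 63 features below, per nucleus thinned to 1500 UMIs (horizontal axis, bins of 3), against the share of nuclei (vertical axis, %), for Avp+ and Nms+ nuclei of 4 libraries; ticks mark single Nms+ nuclei where there were few. In PND30 replicate 2, whose sums chose the features, the curves lie mostly on either side of 0, and Avp+ nuclei of PND30 replicate 1 lie on both sides, 48.6% of them above 0.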

How the data were processed

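Single-nuclei libraries were made by the authors with the 10x Genomics 3' v3.1 kit, counted with Cell Ranger 5.0.1 on mm10, and deposited as raw UMI counts per matrix row and barcode. The authors' filters were at least 750 UMIs, 500 to 10000 genes, and limits on mitochondrial and ribosomal reads and doublet score. Clusters come from the deposited annotation, made with Seurat 4 per the labels. Its suffix gives the stage, and barcodes gave the library. Of 22796 nuclei, 6 could not be placed.

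Nuclei with at least 1500 UMIs were thinned to 1500 without replacement, log-normalised to 10000, and reduced to 30 components of 2000 variable features. Equal numbers per type (584) of PND30 replicate 2 were the reference, and 20 neighbours were read. Summed counts were thinned to the smallest of the 4 types, and fold changes used CPM with a pseudocount of 1 and a mean of at least 10 CPM. Features marking other classes were at least 8-fold above the SCN types with at least 50 CPM. Named features were to be the 2 farthest above and the 2 farthest below all other SCN types. Shares have exact Clopper-Pearson and summed levels exact Poisson intervals at 95%, and libraries were compared by exact permutation. Nuclei are not replicates, and PND30 replicate 2 holds 657 of the members. The fold and neighbour steps were tested on simulated data. The cell type, its comparison types and the lists were chosen with earlier results of these data known. Alternatives changed depth, features, components, neighbours, filters, pseudocount or libraries. Python 3.11.15, numpy 2.4.6, scipy 1.17.1 and pandas 2.3.3 were used.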

Additional observations from a re-analysis of the deposited data

How the results depend on the processing

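The PND30 share exceeded that of PND10 under every alternative run, by 0.855 to 12.0 percentage points of all nuclei and 1.17 to 14.4 of SCN neurons when each library was left out in turn, with no p below 0.33. The replicate numbers are a shared round only by inference from the methods, and 2 pairs cannot show whether they pair the libraries. With the replicate block the differences stayed at 6.41 and 7.77 percentage points, with an exact permutation p = 0.5, the smallest that 2 pairs allow. Between the lowest and highest quintile the Nms+ share differed by 4.83 percentage points by UMIs and by 8.70 by features detected. PND30 replicate 1 gave ratios of UMIs of 0.495, 0.461 and 0.458 and of features of 0.901, 0.886 and 0.886 to Avp+, Vip+ and Cck+ nuclei; without thinning the ratios of features to Avp+ and Vip+ nuclei were 0.898 and 0.873. The own share of neighbours was 91.8% with 5000 variable features, 91.5% at 3000 UMIs and 79.5% among all SCN neurons. With 10 components the ratios of spread were 0.498, 0.488 and 0.800, and with 5000 features that to Vip+ nuclei was 0.623. Features past 2-fold against Avp+, Vip+ and Cck+ neurons numbered 722, 929 and 957 and became 384, 494 and 489 at a mean of 30 CPM, 2276, 2505 and 2611 without a filter and 157, 197 and 151 at 4-fold. Thinning every nucleus before summing gave 1087 against Avp+ neurons. Fewer features tested or a higher limit lowers such counts by construction, and the other causes were not tested. Nms+ was highest in 15.9% of features at 30 CPM and in 26.0% after division by the median ratio.

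Alternatives for Avp+ nuclei, median centring, the smallest sum of the PND30 libraries, division by the median ratio and cosine distance were chosen after seeing the data. The 36.5% of Avp+ nuclei of PND30 replicate 1 with Nms+ leading was 27.9% with 10 components, 42.8% with 5000 features, 27.3% with cosine distance, 29.0% with each library centred and 46.6% without the 125 features. It stayed 2.80 to 4.48 times the share among held-out nuclei of replicate 2. Shallow nuclei limit the 5 members of PND10 replicate 2, of which 2 could be placed.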
